A study of Mus musculus with 18 samples.

Results

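The regions described here are 445 of 25305 stretches of open chromatin (1.76%) in which naive CD4+ T cells with a high Nr4a1 reporter signal had a peak in at least 4 more libraries than cells with a low signal. They were chosen from peak lists made equally long: the 14000 peaks with the largest −log10 p were kept from each of 18 libraries on chromosomes 1 to 19 and X. Peaks that overlapped by 1 bp or more were merged into union regions, and each region was scored by its number of high libraries minus its number of low libraries, out of 9 each. The choice therefore rests on the measured difference between high and low, which is described below without a test. The opposite set, with a difference of 4 or more in favour of low, held 440 regions.

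ATAC-seq marks open chromatin by letting a transposase insert sequencing adapters where DNA is not covered by nucleosomes. Naive T cells receive weak, continuous signals through the T cell receptor (TCR) from self peptides in lymphoid organs, and the immediate early gene Nr4a1, which encodes an orphan nuclear receptor, is switched on by such signals. A short-lived GFP driven by Nr4a1 control sequences therefore reports recent TCR signalling in single cells, and cells of one naive pool can be sorted by it into fractions with weaker or stronger tonic signal.

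All libraries came from untreated C57BL6/J mice, with freshly prepared naive CD4+ T cells sorted as Nr4a1-dsGFP low or high, which the titles call low or high TTS (tonic TCR stimulation). The genotype label reads WT for every sample, and the series' design names the Nr4a1-dsGFP reporter, so both levels carry it; no label says how the reporter was inserted. Spleen, mesenteric lymph node and axillary lymph node each gave 3 low and 3 high libraries, labelled as biological replicates, and the age of the mice and whether replicates came from separate animals are not stated. P-values therefore measure only the spread between these libraries, which may be technical.

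Each library had 14372 to 23129 usable peaks, so the equal lists kept between 60.5% and 97.4% of a library's peaks, down to a −log10 p of 6.85 to 12.4. Read depth, recovered from the peak values as the genome-average pileup, ran from 0.18 to 0.271 reads per position and was highest in the 3 mesenteric high libraries (0.269 to 0.271). Libraries of the same group shared slightly more regions than other pairs, with a Jaccard index of 0.681 to 0.73 in 18 pairs against an overlapping 0.66 to 0.705 in the rest. At regions present in all 18 libraries the chi-square of summit reads per region was 0.504 to 0.641 within groups. In 135 pairs of different groups it was 0.607 to 0.961. Summit reads are taken at each library's own summit, so the value that independent libraries would give is not known. Of 8 genes that mark naive CD4 T cells, Cd3d, Cd4, Tcf7, Lef1 and Ccr7 were nearest to a region open in all 18 libraries, while the remaining markers, Cd3e and Il7r among them, were not. None of the 445 regions was nearest, within 100000 bp, to a marker of B cells, CD8 T and NK cells, myeloid and dendritic cells or stromal and erythroid cells, whose genes held 7 regions present in 4 to 14 libraries, with 0 favouring low.

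Promoters that the chosen regions overlap are shown first, because no genome sequence was used here and only letters of promoter windows could be read. Of the 445 regions, 60 overlapped at least 1 promoter window of RefSeq (GRCm38.p6, from 250 bases before to 50 after a start), for 70 windows in all. The 4 printed below were picked after their values were seen: a shared promoter among the first 24 regions, and the promoters of 3 T cell genes. Each is the 250 bases before the start, 5′ to 3′ on the gene's strand, and capitals mark letters of any of the 8 motifs searched.
Rhobtb1, chr10:69212944-69213193, plus strand: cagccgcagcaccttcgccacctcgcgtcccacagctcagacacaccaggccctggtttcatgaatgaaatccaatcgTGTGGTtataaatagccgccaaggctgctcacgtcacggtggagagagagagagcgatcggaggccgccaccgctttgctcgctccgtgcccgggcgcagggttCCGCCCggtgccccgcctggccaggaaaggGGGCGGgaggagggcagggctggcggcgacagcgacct
Tagap, chr17:7925750-7925999, plus strand: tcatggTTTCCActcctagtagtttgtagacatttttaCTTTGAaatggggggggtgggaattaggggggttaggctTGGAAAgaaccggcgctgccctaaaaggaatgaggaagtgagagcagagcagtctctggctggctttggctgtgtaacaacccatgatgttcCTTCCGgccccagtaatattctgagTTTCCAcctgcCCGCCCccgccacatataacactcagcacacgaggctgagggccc
Il2rg, chrX:101268256-101268505, minus strand: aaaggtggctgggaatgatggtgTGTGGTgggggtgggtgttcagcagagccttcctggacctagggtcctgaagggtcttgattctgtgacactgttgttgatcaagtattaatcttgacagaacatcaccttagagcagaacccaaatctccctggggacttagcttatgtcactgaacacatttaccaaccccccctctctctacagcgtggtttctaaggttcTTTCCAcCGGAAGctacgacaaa
Cd5, chr19:10738975-10739224, minus strand: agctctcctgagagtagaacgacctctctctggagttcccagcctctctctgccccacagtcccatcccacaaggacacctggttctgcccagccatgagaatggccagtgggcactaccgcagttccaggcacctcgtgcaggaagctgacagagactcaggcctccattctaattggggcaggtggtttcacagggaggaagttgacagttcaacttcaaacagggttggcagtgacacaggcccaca
Rhobtb1 encodes an atypical GTPase, and its start faces that of A930033H14Rik, so a single region covers both promoters; that region was listed in 7 high libraries and 1 low library. Tagap encodes a GTPase-activating protein of activated T cells, and its promoter was listed in 9 high and 4 low libraries. Il2rg, the common cytokine receptor gamma chain, was listed in 8 and 4, but with peaks of any rank counted it was present in 8 high and 8 low libraries. The promoter of Cd5, a surface brake on TCR signalling whose level follows tonic signal, was listed in 8 high and 4 low libraries. It held none of the 8 motifs, whereas the Tagap window held letters of NFAT, ETS, GC box and TCF motifs.

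The motifs were searched on both strands in the 250 bases before the start, and a base could count for more than 1 motif, as where EGR and GC box letters meet. Windows of 1 region can overlap, so the same letters can count in more than 1 window, as the ETS letters at Lzic and Nmnat1 do. A window can also reach beyond its region, so a motif counted can lie outside it. At Prrg4 76 of the 250 bases overlap the region, and at Cd5 212. The ETS letters CGGAAG were in 35.7% of the 70 windows, in 25.6% of 1915 windows of regions present in 4 to 14 libraries, in 27.4% of 95 windows of regions favouring low and in 13.6% of all 32851 windows. The TCF letters TCAAAG were in 17.1% of the 70 windows, against 12.7%, 7.37% and 13.8% in the same 3 comparison sets. RUNX letters (TGTGGT) were in 7.14% against 11.6%, 18.9% and 14%, and GC box letters (GGGCGG) in 50% against 55.9%, 68.4% and 32.7%. NFAT letters (TGGAAA) were in 12.9% and AP-1 letters (TGANTCA) in 4.29%, beside 15.9% and 4.23% of windows of regions in 4 to 14 libraries. A further set is the 6418 windows of regions present in all 18 libraries. There ETS letters were in 31.7%, nearer to the members' 35.7% than in the other sets. TCF letters were in 9.26% of these windows, RUNX in 9.32%, GC box in 68.3%, NFAT in 11.5% and AP-1 in 2.93%. Neither the NR4A NBRE (AAAGGTCA) nor the EGR motif (GCGTGGGCG) was found in a member's window, beside 0.94% and 1.1% of the 1915. In the 95 windows of regions favouring low the NBRE letters were also in 0, and the EGR letters in 5 (5.26%). The median GC content of the 70 windows was 59.6%, as in the 1915, against 63.6% in windows of regions favouring low. These shares describe letters in windows and were not tested.

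A difference of 4 needs a region present in 4 to 14 libraries, and 7357 regions were. Of these, 6.05% favoured high and 5.98% favoured low by the rule, so the equal lists gave both directions nearly the same number. Among the 445 regions the difference was 4 in 294, 5 in 112, 6 in 28, 7 in 9 and 8 in 2. The regions just inside the threshold, ordered as the named genes are, lie near Rnf41, Rbm18 and Vdac1, each with 4 high and 0 low libraries. Those just outside lie near Polk, Cd83 and Pard3, each with 3 high and 0 low libraries. With all 7357 regions tested by Fisher's exact test of 9 against 9 libraries, 0 passed a Benjamini-Hochberg adjusted p under 0.05 (0% called, smallest adjusted p 1), and 131 with more high and 118 with more low libraries had an unadjusted p under 0.05. Nothing is read from that test for the chosen regions, since the same contrast chose them.

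The same rule was applied to every exchange of high and low labels among the files of an organ, 8000 labellings in all. The mirror image, with all labels exchanged, gave the 440 regions favouring low. The remaining 7998 labellings gave 224 to 415 regions with a median of 281, and 0 reached 445. The count was highest at both ends of the number of files moved out of each level. With 1 file moved, 27 labellings gave 324 to 415 regions with a median of 383. The median was 315 with 2 files moved, 284 with 3, 274 with 4 and 276 with 5, and then 291 with 6, 322 with 7 and 371 with 8, toward the 440 of the mirror image. Keeping the 3 libraries of each group together leaves 6 labellings that are neither the deposited one nor its mirror, which gave 353 regions with the spleen labels exchanged, 314 with the axillary and 264 with the mesenteric labels. The other three, with 2 organs exchanged, gave 340 (spleen and axillary), 312 (mesenteric and axillary) and 278 (spleen and mesenteric). These counts describe the selection and carry no p.

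**Figure D1:**
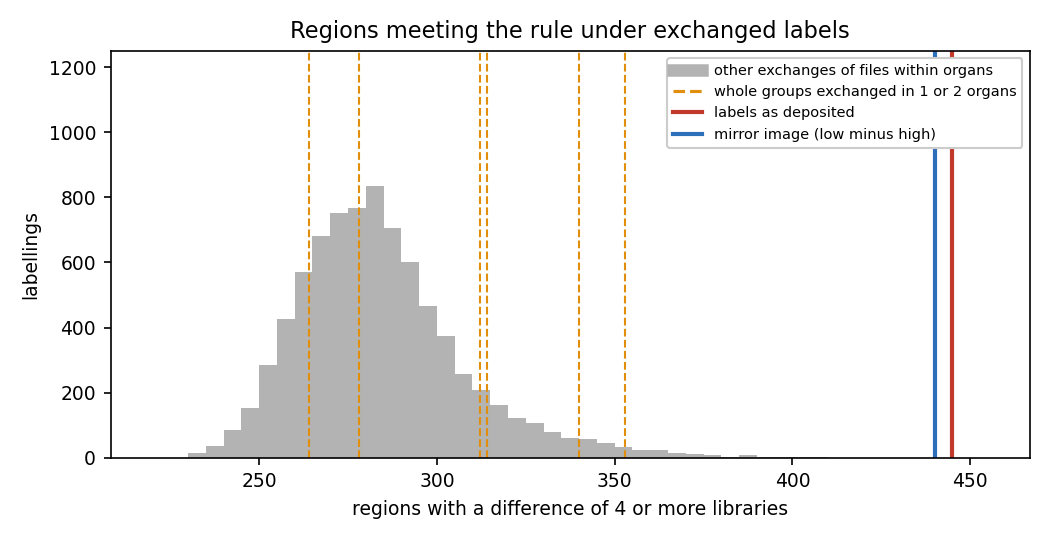
Histogram of the number of regions that meet the rule (x axis) over 7998 exchanged labellings (y axis, number of labellings), with dashed lines for the 6 exchanges of whole groups. The deposited labels gave 445 regions and their mirror image 440, both to the right of all other labellings, which reach 415.

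In single libraries the chosen regions were listed 286 to 345 times among the 9 high libraries, with a median of 310, and 86 to 104 times among the 9 low libraries, with a median of 92. The ranges do not overlap, which the choice of regions fixes. The lists cut off many weaker peaks: with peaks of any rank counted, the same regions were present 299 to 432 times in high libraries (median 353) and 98 to 243 times in low ones (median 186). Mesenteric high libraries, the deepest and with 22885 to 23129 peaks each, reached the top of that range. At the bottom were the axillary low libraries (98 to 137 regions), with 14372 to 15092 peaks, and spleen low 3 (108 regions), with 14514 peaks. A region had on average 6.31 high and 1.86 low libraries in the equal lists, and 7.45 and 3.38 at any rank. Of the 445 regions, 285 (64%) still had a difference of 4 or more at any rank, while 51 of the 440 regions favouring low kept theirs. The part of depth or of the number of peaks called in this asymmetry was not tested. In 114 regions 0 low libraries were listed, and in 41 of these 0 low libraries had a peak at any rank.

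**Figure D2:**
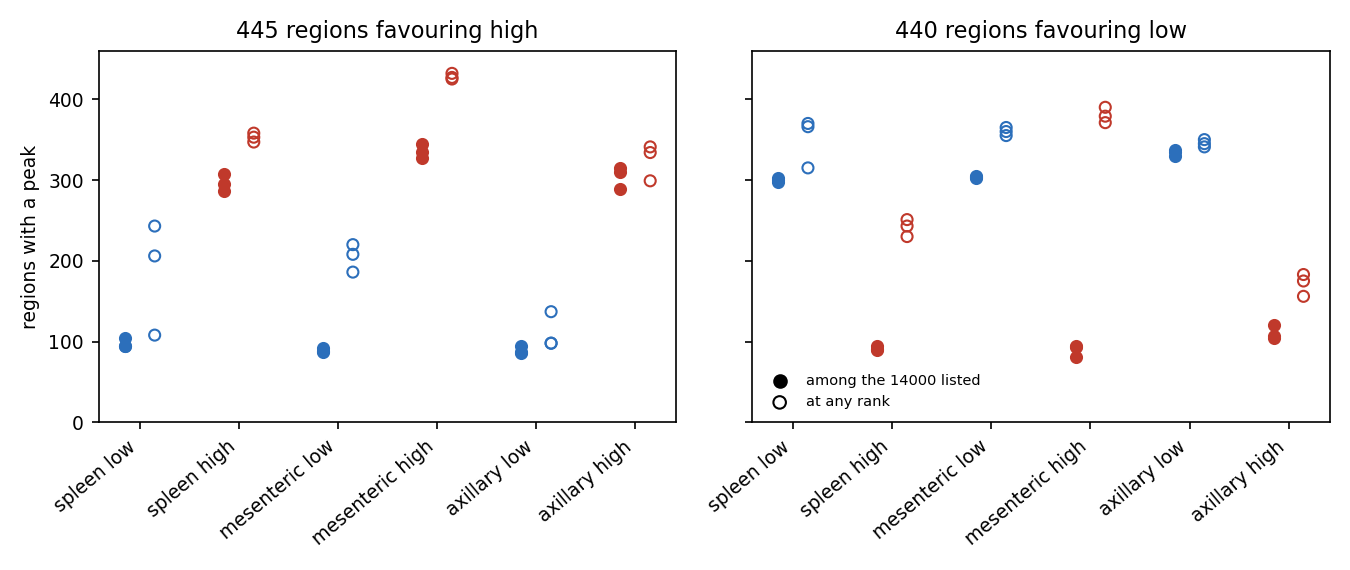
Number of chosen regions with a peak in each library (y axis) for the 445 regions favouring high (left) and the 440 favouring low (right), with 3 points per group, filled among the 14000 listed peaks and open at any rank. Filled points of high libraries lie between 286 and 345 on the left, and open points of low libraries spread from 98 to 243.

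By organ, 409 regions had more high than low libraries in the mesenteric nodes, 382 in the axillary nodes and 367 in the spleen. The direction was shared by 3 organs in 268 regions and by 2 organs in 177, beside 264 of 440 regions favouring low with 3 organs. A region confined to 1 organ cannot reach a difference of 4, so the rule itself limits how far the organs can part. Complete separation within an organ, 3 high and 0 low libraries, is a pattern that the rule favours, and its share over all regions was not counted. It occurred in 79 regions in mesenteric nodes, 47 in axillary nodes and 46 in spleen. Regions near Magi2, Stra8, Sbk1, Zmym2, Spata13, Nr4a1 and Tex13c3 had it in at least 2 organs; these 7 are named because they are few.

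A difference between the 3 organs, a contrast the rule did not use, was tested in the 7357 regions by the exact Fisher-Freeman-Halton test. Over all regions 5.61% had an unadjusted p under 0.05, and among the 445 regions 3 did (0.674%). After Benjamini-Hochberg adjustment 0 regions passed in either set (0%), with a smallest adjusted p of 0.198 over all regions and 0.521 among the chosen ones by the same exact test. The low share among the chosen regions is bounded by the rule, as said above. The 3 regions lie near Zmiz1, a coregulator of transcription (5 of 6 spleen, 3 of 6 mesenteric and 0 of 6 axillary libraries), Tnfrsf1b, a receptor of tumour necrosis factor (6, 1 and 3), and Cdh1, which encodes E-cadherin (3, 6 and 1).

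Of the 24 regions with the largest differences, ordered as above, Myc was the single nearest gene from the list of TCR-induced genes, and it lies far away. The largest, at chr7:126230376-126230725, lies 17847 bp from the end of Sbk1, a kinase gene, and was listed in 2 of 3 spleen high, 3 of 3 mesenteric high and 3 of 3 axillary high libraries and in 0 low ones. Its fold enrichment, the authors' ratio of summit reads to local background, was 6.07 to 11.6 in 9 high libraries with a peak of any rank (median 8.73), and the single low peak, in the spleen, had 4.04. Magi2, a scaffold protein of cell junctions, holds the other region with a difference of 8 inside the gene, at chr5:20087094-20087546. It was listed in 9 of 9 high libraries and 1 of 9 low ones, and its fold of 5.52 to 12.6 in high libraries (median 8.47) spans the 7.17 of the single low library, an axillary one.

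The rule chose on presence among the strongest peaks by −log10 p, so the strength of the called peaks is tied to the choice. Over the 445 regions, the median fold of a library's peaks of any rank was 6.62 to 8.42 in the 9 high libraries and 6.1 to 6.42 in the 9 low ones. The 2 ranges do not overlap, but this belongs to the contrast that chose the regions and carries no test. In the 3 mesenteric high libraries, the deepest, the median was 8.25 to 8.42, and in the other high libraries 6.62 to 7.16. At Tnfrsf19, a receptor of the tumour necrosis factor family, 9 high libraries had folds of 7.05 to 13.5 (median 10.1) and the 2 low libraries with a peak had 5.47 and 8.6. At Mllt3, a subunit of the super elongation complex, 9 high libraries had 6.56 to 12.9 (median 7.64) and 2 low libraries 6.58 and 7.08. Both regions had no further low peak at any rank. Siah3, related to ubiquitin ligases, was listed in 9 high and 2 low libraries, with folds of 7.19 to 11.7 (median 8.19) in the high ones and 5.47 to 7.55 in the 3 low libraries with a peak of any rank.

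Among the other regions with a difference of 7, Tns1 (a focal adhesion protein) and Lhpp (a phosphatase) had 7 high and 0 low libraries. Rab6b (a GTPase of vesicle traffic), Sox5 (a transcription factor) and Spata13 (a guanine nucleotide exchange factor) had 8 and 1. A region at chr15:61546652-61546977 also had 8 and 1; its nearest protein-coding gene is Myc, a growth regulator induced by TCR signals, at 438527 bp. Its fold was 6.61 to 15.3 in 8 high libraries (median 8.84) and 5.58 and 6.45 in 2 low libraries with a peak of any rank. A neighbouring region at chr15:61441656-61442005 had 6 high and 0 low libraries and no low peak at any rank, and its nearest gene is A1bg at 520560 bp.

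The remaining first 24 regions had a difference of 6. Those with 6 high and 0 low libraries lie near Btg1 (at 218231 bp), Cd200r3, A1bg, Prtg, Fam186b and Med10. Those with 7 and 1 lie near Pofut1, which adds fucose to Notch receptors, Abi1 and Wipf1, which act on the actin cytoskeleton, Chd7, a chromatin remodeller, Cldn10, a tight junction protein, Tex13c3 and the A930033H14Rik and Rhobtb1 promoters shown above. Cd200r3 and A1bg had 0 low libraries at any rank, while Fam186b and Tex13c3 had 4 each.

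**Figure D3:**
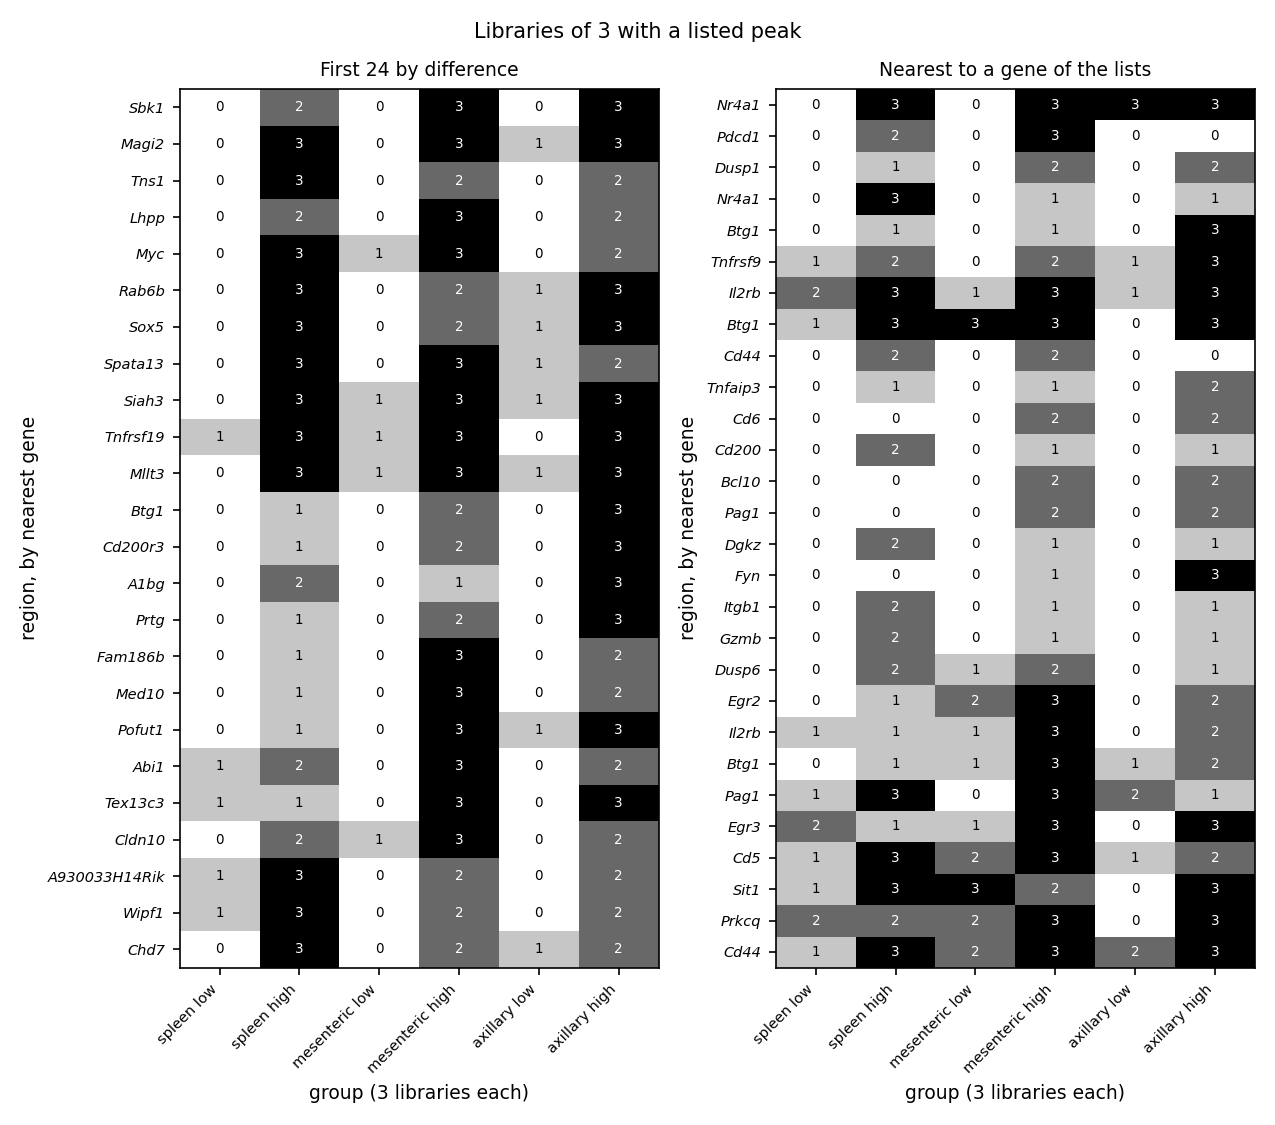
Number of libraries of 3 with a listed peak in each group (columns) for the first 24 regions by difference (left) and the 28 regions nearest to a gene of the pathway lists (right), each row a region named by its nearest gene and darker cells meaning more libraries. Low columns are mostly 0 on the left, where Magi2 has 9 high and 1 low library, while Cd5, Sit1 and Prkcq on the right have 4 low libraries each.

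Genes of TCR signalling were read from fixed lists, with a region assigned to the protein-coding gene whose end is nearest within 100000 bp. Over all such genes 410 of 6737 regions present in 4 to 14 libraries (6.09%) favoured high. For 33 genes induced by or graded with TCR signal the count was 9 of 55 (16.4%), with 3 favouring low and a median difference of 0 over the list's regions, as over all regions. The 9 regions belong to Nr4a1 (2 regions), the zinc finger factor genes Egr2 and Egr3, the inhibitory receptors Pdcd1 (PD-1) and Cd5, the related Cd6, the surface glycoprotein Cd200 and the costimulatory receptor Tnfrsf9 (4-1BB). The 2 Nr4a1 regions lie in a stretch of high local reads at the reporter gene's own locus, and Egr3 lies on chromosome 14, both described below. Their part in the 16.4% was not tested. The 3 favouring low lie near Il2ra, Myc and Tox. The 2 Myc entries point in opposite directions, since the region favouring low lies 1779 bp from Myc and the one favouring high beyond the distance limit.

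At Pdcd1, a region 1235 bp from the gene's end was listed in 2 spleen high and 3 mesenteric high libraries, with folds of 6.21 to 9.12 (median 7.67), and in 0 of 9 low and 0 of 3 axillary high libraries; no other library had a peak at any rank. At Cd200 a region 35012 bp away was listed in 4 high libraries, but 8 had a peak of any rank with folds of 5.25 to 8.04 (median 6.8), against 0 of 9 low libraries. Cd6 had 4 high and 0 low libraries, from the mesenteric and axillary nodes alone, at any rank too. These 3 regions had no peak in a low library.

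Egr3 and Egr2, immediate early genes downstream of the TCR, were less separated. The Egr3 region, 453 bp from the gene's end on chromosome 14, was listed in 7 high and 3 low libraries, and the high folds of 4.68 to 6.93 (median 5.77) enclosed the low ones of 5.32 to 5.82. The Egr2 region, 22103 bp away, had 6 and 2 libraries with folds of 6.49 to 11.6 (median 7.95) in high and 5.63 to 7.53 in low libraries. At Cd5, where the region covers the promoter printed above, the folds of 8 high libraries (4.76 to 8.83, median 6.9) and of 6 low libraries with a peak of any rank (4.63 to 8.36, median 6.34) covered nearly the same range. Tnfrsf9 had 7 high and 2 low listed libraries, and 8 and 5 at any rank.

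**Figure D4:**
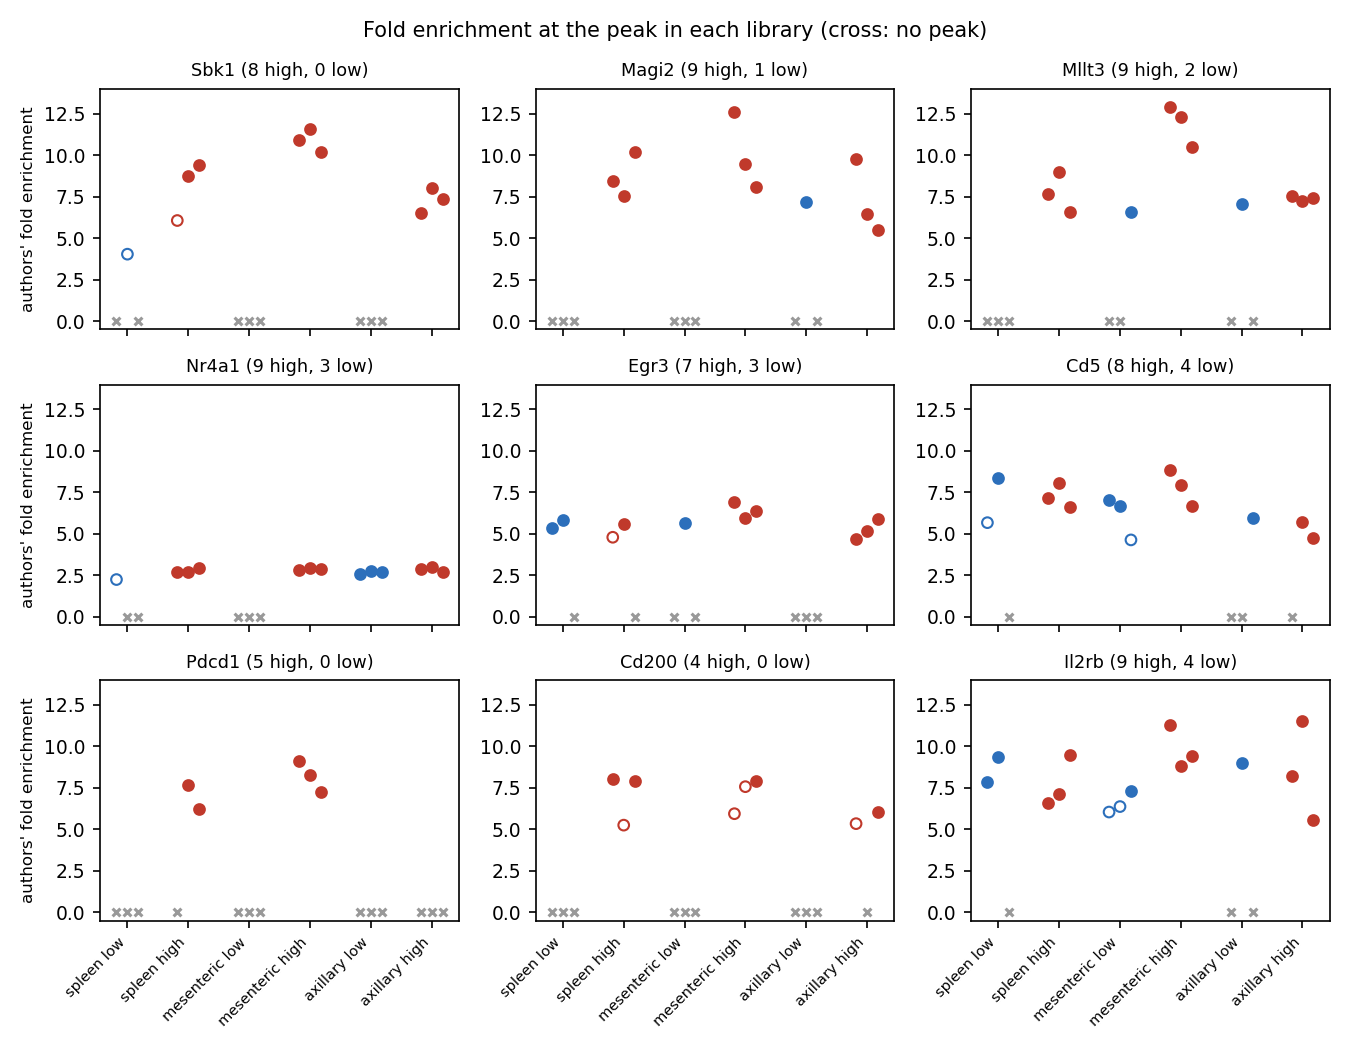
Fold enrichment of the strongest peak (y axis, the authors' ratio) in each of 18 libraries at 9 regions, red for high and blue for low libraries, filled where the peak is among the 14000 listed, open below the list, and a grey cross at 0 where no peak was called. Pdcd1 and Cd200 show crosses in all 9 low libraries, whereas the blue points of Egr3 lie within the range of the red ones and those of Cd5 cover nearly the same range.

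Components of the TCR pathway itself gave 3 of 33 regions (9.09%), with 1 favouring low. They lie near Fyn, a Src family kinase (4 high, 0 low), Bcl10, an adaptor that links the receptor to NF-kB (4 and 0), and Prkcq, protein kinase C theta (8 and 4). Negative regulators gave 7 of 60 regions (11.7%) with 6 favouring low. The 7 lie near Dusp1 (5 and 0) and Dusp6 (5 and 1), phosphatases of MAP kinases, Dgkz (4 and 0), a diacylglycerol kinase, Tnfaip3 (4 and 0), the NF-kB inhibitor A20, Sit1 (8 and 4) and Pag1 (4 and 0, 7 and 3), adaptors that dampen proximal signalling. The 6 lie near Cblb, Dgkz, Dusp5, Sla2, Tigit and Ubash3b, so Dgkz had a region in each direction. Dgkz and Tnfaip3 each had 7 high libraries with a peak of any rank and 0 low ones. The list of factor genes of the AP-1, NFAT, NF-kB and IRF families gave 0 of 27 regions, with 2 favouring low at Irf2 and Nfatc2.

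Among genes of the naive and quiescent state, 3 of 48 regions (6.25%) favoured high, all near Btg1, an antiproliferative factor, and 4 favoured low, near Bcl2, Btg1, Ets1 and Runx1. Foxp1, of the same list, was also the nearest gene of members with 9 and 5, 6 and 1, and 6 and 2 libraries. These lie 172035, 261373 and 131908 bp from a gene end, and regions beyond the distance limit are counted in neither direction. Genes of effector and memory cells gave 6 of 34 (17.6%), with 4 favouring low, near Eomes (2 regions), Il21 and Cd44. The 6 lie near Cd44 (9 and 5, 4 and 0), the activation marker and hyaluronan receptor, Il2rb (9 and 4, 6 and 2), the beta chain of the receptors for interleukin 2 and interleukin 15, Itgb1 (4 and 0), integrin beta 1, and Gzmb (4 and 0), granzyme B. At the Il2rb region with 9 high libraries, folds were 5.58 to 11.5 in high (median 8.81) and 6.04 to 9.38 in the 6 low libraries with a peak of any rank (median 7.56), so the ranges overlap. The lists were chosen with earlier results of these data known, and their counts are a description.

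Most members were weak peaks near the end of the lists. Their listed peaks had a median fold of 7.54, a median −log10 p of 12.5 and a median position at 77.2% of the list counted from the strongest peak. For regions present in all 18 libraries the medians were 10.8, 23.4 and 27%, and for all regions 8.92, 16.4 and 49.7%. Regions present in 4 to 14 libraries resembled the members, at 7.29, 11.7 and 78.2%. Summit reads at the members, as a multiple of the library's genome average, had a median of 51.9 beside 51.8 in regions present in 4 to 14 libraries. Below the list, members had 506 further peaks in high libraries (median −log10 p 8.89) and 677 in low libraries (median 8.08).

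The members were also mostly distal. Of 445, 241 (54.2%) lay inside a protein-coding gene and 13.5% overlapped a promoter window, beside 58.6% and 21% of the regions in 4 to 14 libraries, 58% and 17.7% of the regions favouring low and 65.1% and 63.3% of the regions in all 18. The median distance to the nearer end of a protein-coding gene was 15030 bp, beside 10776 bp in regions in 4 to 14 libraries and 13594 bp in those favouring low. More than 100000 bp from any such end lay 35 members (7.87%). The median width was 427 bp, and 443 bp in regions in 4 to 14 libraries.

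Chromosome 14 held 36 members, 8.09% of all, and 8 regions favouring low. Members made up 11.5% of its 313 regions in 4 to 14 libraries, the highest share of any chromosome, followed by 8.45% on chromosome 15, where 30 members lie. On chromosome 14, summit reads at 306 regions open in all 18 libraries, which are not members, were also higher in high libraries. Their mean log2 level, centred on the mean over all such regions of a library, was 0.0988 to 0.216 in the 9 high libraries (median 0.204) and −0.0123 to 0.149 in the 9 low ones (median 0.0457). The 2 ranges overlap in part, and the high minus low difference was 0.114, beside −0.0307 to 0.0407 on the other chromosomes. Between 50 and 80 Mb, 23 of the 36 members lie, among them Tnfrsf19, Spata13, Siah3, Zmym2, Gzmb and Egr3. Regions in 4 to 14 libraries were also frequent there. Of the chromosome's 313, 36 lie from 50 to 60 Mb, 33 from 60 to 70 Mb and 52 from 70 to 80 Mb. These parts held 9, 6 and 8 members. Without chromosome 14 the rule gave 409 regions favouring high and 432 favouring low, so the near balance of the directions turned slightly to low. Whether a shift along the whole chromosome contributes to its members was not tested.

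**Figure D5:**
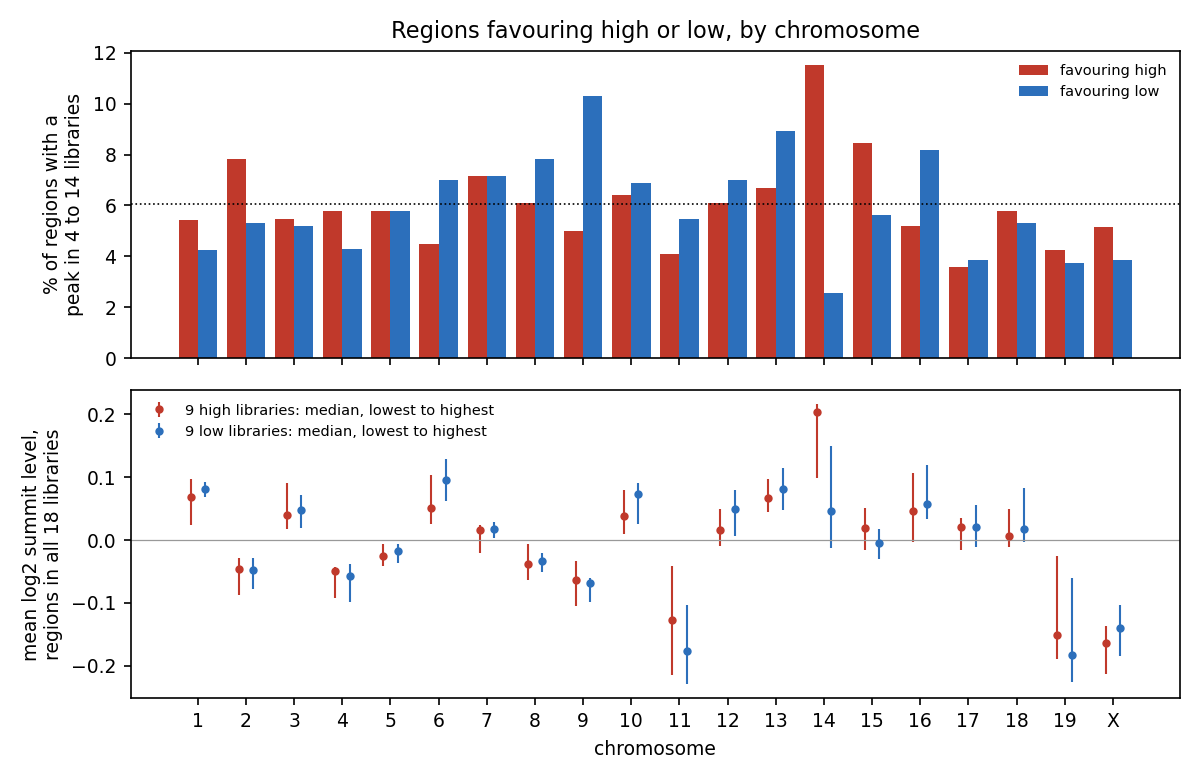
Top: share of regions present in 4 to 14 libraries (y axis, %) that favour high (red) or low (blue) on each chromosome, with a dotted line at 6.05%. Bottom: mean log2 summit level of regions in all 18 libraries, centred per library, as the median with the lowest and highest of the 9 high or 9 low libraries. Chromosome 14 has 11.5% favouring high and the highest levels in high libraries.

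The reporter gene's own locus gave 5 members in a short stretch of chromosome 15. The stretch was taken as the run of neighbouring regions around Nr4a1 whose median local read background exceeded 10 times the genome average, so that limit sets its ends. It covers chr15:101210096-101362891 and holds 21 regions, 11 of them open in all 18 libraries. The next regions on either side had 2.65 and 1.67 times the average, and all listed peaks had a median of 4.5 times. Within the stretch the local background at the 11 regions was 58.5 to 74.5 times the average in the 9 high libraries (median 61) and 40.8 to 46.4 times in the 9 low libraries (median 42.5), with no overlap. The members are nearest to Grasp (2 regions), Nr4a1 (2 regions) and Smim41, and 0 regions of the stretch favoured low. Extra copies of the sequence, if the reporter brought any, and open chromatin at the gene itself cannot be told apart in these values.

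The Nr4a1 region 3339 bp from the gene was listed in 9 of 9 high libraries with folds of 2.69 to 2.98 (median 2.88). It was also listed in 3 of 3 axillary low libraries but in 0 of 3 spleen low and 0 of 3 mesenteric low ones, and the 4 low peaks of any rank had folds of 2.24 to 2.77. The region inside Nr4a1, at chr15:101256077-101256399, was listed in 3 spleen, 1 mesenteric and 1 axillary high library and in 0 low libraries, and at any rank in 7 high and 0 low ones. Its folds of 2.19 to 2.54 are low because the local background there is 122 times the genome average. Smim41 had 7 high and 0 low libraries at any rank.

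Members also lay in runs. With gaps of at most 500000 bp between neighbours, 17 runs of 3 or more held 60 members, beside 10 runs with 34 regions favouring low. Of 7 runs with at least 4 members, 1 is the Nr4a1 stretch, with 5 regions in 4 to 14 libraries from its first to its last member. Another, with 5 members over 1347393 bp on chromosome 14, runs from Pck2 through Nynrin, Gzmb and Pspc1 to Zmym2. It holds 8 regions in 4 to 14 libraries and 0 favouring low, where 5.98% of all such regions favoured low. On chromosome 10, 4 members nearest to Btg1 lie within 322779 bp, with 1 region favouring low between them. That run holds 11 regions in 4 to 14 libraries. Its 4 members had 6 and 0, 9 and 4, 6 and 2, and 5 and 0 high and low libraries in order along the chromosome. In all, 17 genes were nearest to more than 1 member within 100000 bp, beside 18 genes with more than 1 region favouring low. Btg1 was the only gene with more than 2 members within that distance, since the Foxp1 members lie beyond it.

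Which regions are chosen depends on where the lists are cut. With the 10000 strongest peaks of each library the rule gave 335 regions favouring high and 307 favouring low, but 73 regions were shared, 16.4% of the 445 and 21.8% of the 335. With full lists of unequal length 1505 favoured high and 102 favoured low, and 283 were shared, 63.6% and 18.8%. Ranking by fold instead of p gave 511 regions with 334 shared, and merging only peaks that overlap by 50% gave 475 with 418 shared. Across 5 such settings (both list lengths, fold ranking, the larger overlap and windows of 100 bp around summits) 30 of the 445 regions met the rule each time, and 7 of these lie on chromosome 14. They include those near Mllt3, Siah3, Tnfrsf19, Sbk1, Myc, Rab6b and Pofut1, and 0 of the 28 regions of the gene lists. Leaving out 1 library gave 224 regions (without mesenteric high replicate 3) to 658 (without mesenteric low replicate 1). A missing high library lowers every difference it had a peak in, so each of the 9 high libraries, left out, brought the count to between 224 and 273. The 151 members with a difference of 5 or more were kept whichever single library was left out. This follows from the rule, since 1 library changes a difference by at most 1 unless a merged region splits.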

How the data were processed

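ATAC-seq peak lists of 18 libraries (6 groups of 3, from the titles) were used. The authors deposited 1 list per library on mm10, per the submitters' processing notes made with Trimmomatic 0.33, Bowtie2, bedtools and MACS; other versions, caller options, read shifting and duplicate handling are not stated in the sources used. Each deposited peak has a score, a fold (ratio to local background), a −log10 p, a −log10 q and a summit position. Of the peaks, 314425 were used and 404 on other sequences set aside. Lists were cut at 14000 by −log10 p. Summit and background reads were recovered from fold and Poisson p; exactly 1 whole-number pair matched within 0.002 in 99.3% of peaks, and depth rests on these. Genes came from RefSeq GRCm38.p6 (21627 protein-coding genes; the list gene Folr4 was not matched). Gene strand was not used, so distances are to the nearer gene end. Regions were tested in Python 3.11.15 with SciPy 1.17.1, two-sided, with Benjamini-Hochberg adjustment at 0.05 over 7357 regions; scripts were tested on simulated data. The text names the first 24 regions by difference, then fewest low libraries, then mean rank, and all regions of the gene lists; others are named where stated. Members and lists were chosen with earlier results of these data known. Alternatives were list length, ranking, overlap, threshold, left-out libraries, organs and chromosomes, and a replicate block. Some genes are not reported here.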

Additional observations from a re-analysis of the deposited data

Results flagged for a closer look

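Among the 9 low libraries, spleen low 1 had the highest number of chosen regions in its list, 104, beside 86 to 95 in the other low libraries. Its gap to the next library was 0.5 of the whole range, above the 95% limit of Dixon's test for 9 samples. Chance flags about 1 in 20 groups in a single look. Both ends of the listed and any-rank counts were examined in high and low libraries, so chance flags are more frequent here. The listed counts also rest on the presences that chose the regions, so nothing is concluded about the library. Its 243 chosen regions at any rank, also the highest of the low libraries, were not set apart in the same way (0.159 of the range).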

How the results depend on the processing

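Beside the 445 and 440 regions favouring high and low, a difference of 5 or more gave 151 and 142 and a difference of 3 or more 1158 and 1198; full lists gave 1505 and 102. With a difference of 3 over the remaining 12 libraries, leaving out the spleen gave 691 and 620, the mesenteric nodes 591 and 655, and the axillary nodes 641 and 598. Leaving out 1 library gave 224 to 658 and 216 to 668. Counts within 1.5 times the main ones came from the 10000 strongest peaks, fold ranking, 50% overlap, summit windows, recovered summit reads (433 and 460, with 224 of 445 shared) and the exclusion of chromosome 14 with or without the Nr4a1 stretch; summit windows, summit reads and chromosome 14 alone were chosen after seeing the data. Counting a peak by its summit changed nothing, by construction.

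In all 7357 regions, 249 had an unadjusted p under 0.05 for high against low and 413 for organs. Full lists gave 492 and 1057, and leaving out 1 library 359 to 435 and 548 to 607. With replicate numbers as a block (exact McNemar test) 62 regions passed unadjusted for high against low; high and low libraries of the same number and organ correlated at −0.0138 to 0.0122, so they share only a number. In every setting 0 regions passed after adjustment. The part of depth in which peaks are listed was not tested.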
